A study of Mus musculus with 84 samples.

Results

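The genes described here are the cytosolic ribosomal protein genes of mouse liver, that is, the protein-coding genes whose symbol is Rpl or Rps followed by a number, together with Rpsa, Rplp0, Rplp1 and Rplp2. Pseudogenes and the Rps6k kinases were left out, and a median count above 8 over all mice was required. The rule named 47 rows of the count table, and 35 of them passed the count minimum, out of 10415 genes that passed it in all. Of the 35, 17 encode proteins of the small ribosomal subunit, 14 proteins of the large subunit and 2 the P stalk proteins Rplp0 and Rplp2. The other 2, Rps19bp1 and Rpl7l1, carry a matching symbol but encode proteins that are not counted among the parts of the mature ribosome. Rps4x, with a median count of 9.69, was the member just inside the minimum, and Rps24, at 1.35, was the row just outside it.

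The livers came from 84 male B6C3F1 mice, 8 weeks old per the labels, that ate diet containing 1 of 3 organophosphate pesticides (OPPs) for 7 days. There were 12 groups of 7 mice: a control on diet without pesticide (Con0ppm), fenthion (FT) at 2.5, 5, 10 and 20 ppm, methidathion (MT) at 10, 25, 50 and 100 ppm, and parathion (PT) at 20, 40 and 80 ppm. RNA was read by TempO-Seq, an assay in which pairs of short detector oligos are ligated where they meet on their target mRNA and are then amplified and sequenced. The mice fell into experimental blocks, with 2 per group in block 1, 3 in block 3 and 2 in block 4, and the RNA of 77 mice was isolated at one laboratory (EA) and that of 7 mice, of the control, FT20ppm, MT10ppm and MT100ppm groups, at another (EPA). Total counts were 6950380 to 15300600 per mouse (rounded), so that a count of 3 was worth 0.196 to 0.431 CPM (counts relative to the TMM-scaled library total). The tissue label was checked against its markers: the 8 hepatocyte markers summed to 26929 to 46475 CPM. The 5 markers of bile duct cells summed to 11.3 to 184 CPM (median 66.2). Among these, Epcam had a median count of 0 and Spp1 one of 741. Replicate 1 of the 80 ppm parathion group (PT80ppm) and, for Rpl10a, replicate 2 of FT10ppm stood apart from their groups, and the results that rest on them are given with and without them. The authors housed mice several to a cage and assigned whole cages to the diets. The labels do not give the cage of a mouse, so cage was not a term in the model. The p-values therefore measure the spread between these mice and not between cages. They treat the mice as independent, which mice of a shared cage may not be.

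Ribosomal proteins are the structural proteins that fold around the ribosomal RNAs, and cells make them in near equal numbers because a ribosome holds a single copy of most of them. Their mRNAs belong to the TOP class (terminal oligopyrimidine), which begin with a C followed by a run of pyrimidines. The growth kinase mTOR sets how strongly TOP mRNAs are translated, through the binding protein Larp1. The liver is rich in ribosomes because its hepatocytes export much of the protein of the blood. Mammalian genomes also carry very many processed pseudogenes of these genes, copies made from the mRNA, and short reads of gene and copy can be alike.

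The start sequences of the genes were searched for this class mark. RefSeq promoter windows (GRCm38.p6) were on hand for 26 of the 35 genes, in 29 windows of 300 bases. A C followed by at least 4 pyrimidines stood exactly at the annotated start in 6 of the 29 member windows (20.7%), against 2.51% of the 32851 windows of all genes. The 6 are shown with 15 bases before the start and 15 from the start on, with the pyrimidine run from the start in capitals.
Rpl28 (chr7:4792950-4792979, + strand): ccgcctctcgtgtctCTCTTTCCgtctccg
Rpl35 (chr2:39005117-39005146, - strand): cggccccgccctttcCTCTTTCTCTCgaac
Rplp2 (chr7:141447636-141447665, + strand): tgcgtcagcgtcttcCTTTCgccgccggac
Rps10 (chr17:27635230-27635259, - strand): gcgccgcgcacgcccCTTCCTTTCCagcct
Rps15a (chr7:118116133-118116162, - strand): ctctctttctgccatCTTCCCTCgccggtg
Rps6 (chr4:86857353-86857382, - strand): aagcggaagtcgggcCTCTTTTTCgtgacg
The match depends on the base the annotation names as the start, and no match says only that the run does not begin at that base. The letters CCGGAAG, searched on both strands, where the reverse complement opens with a pyrimidine run and can overlap the run at the start, were present in 10 of the 29 member windows (34.5%) and in 8.86% of all windows.

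A second sequence feature bears on the counts themselves. The deposited counts are estimates that divide a read among the genes it fits, and 522 rows of the table belonged to annotated pseudogenes that matched the transcript of a ribosomal protein gene over at least 80% of the pseudogene at 90% identity or more. Of the 35 genes, 27 had at least 1 such row, and in 11 the pseudogene row had a higher median count than the gene. Non-whole counts mark where reads were divided: the median member was non-whole in 98.8% of mice, whereas the median over all tested genes was 0%. Only Rpl4, Rpl41 and Rps3 were whole in every mouse.
Stretches of 60 coding bases from 3 genes (GRCm39) and from a pseudogene of each are shown because the values of these genes return in the results, with capitals at the bases that differ within the pair.
Rps4x (chrX:101228542-101233014, - strand), bases 337 to 396: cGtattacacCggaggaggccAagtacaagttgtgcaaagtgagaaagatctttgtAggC
Gm9294 (chr7:42603024-42603812, - strand): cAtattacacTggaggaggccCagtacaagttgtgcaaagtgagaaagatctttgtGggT
Rps23 (chr13:91071077-91085586, + strand), bases 1 to 60: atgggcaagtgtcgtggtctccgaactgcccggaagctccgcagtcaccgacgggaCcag
Rps23-ps2 (chr8:3633799-3634230, - strand): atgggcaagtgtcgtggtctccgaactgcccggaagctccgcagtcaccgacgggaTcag
Rpl10a (chr17:28547144-28550008, + strand), bases 1 to 60: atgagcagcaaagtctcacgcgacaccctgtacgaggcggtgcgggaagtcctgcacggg
Rpl10a-ps1 (chr1:65033110-65033763, - strand): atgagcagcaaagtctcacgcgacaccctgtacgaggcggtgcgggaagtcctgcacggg
Rpl10a and Rpl10a-ps1 did not differ at any of 654 coding bases, and their rows had median counts of 16.7 and 2775. Rps23 and Rps23-ps2 differed at 2 of 432 bases, with median counts of 19.1 and 1569. Rps4x and Gm9294 had median counts of 9.69 and 27.998.

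**Figure D1:**
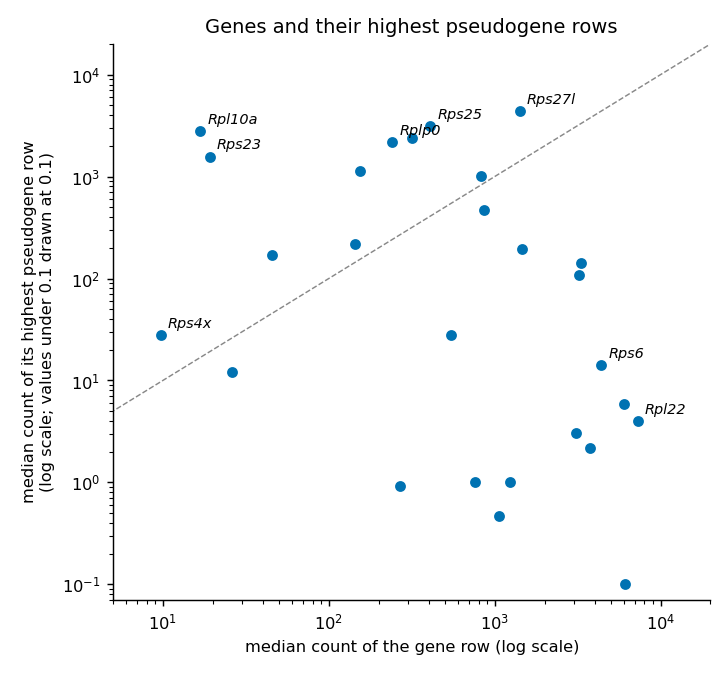
Each point is 1 of the 27 ribosomal protein genes with a matched pseudogene row. The x axis gives the median count of the gene over 84 mice and the y axis the median count of its highest pseudogene row, both on a log scale, and the dashed line marks equal counts. The 11 genes above the line, among them Rpl10a, Rps23, Rps4x, Rplp0, Rps25 and Rps27l, had fewer counts than their pseudogene.

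The question put to each dosed group was whether the ribosomal protein mRNAs differed from the control diet. At 80 ppm parathion, 17 of the 35 genes passed the test, and all 17 were higher (edgeR's quasi-likelihood test in a model that also held block and isolator, Benjamini-Hochberg adjusted p under 0.05 over 10415 genes). Over all tested genes, 18.6% were called in this comparison and 9.75% were called higher. The median log2 fold change of the 35 genes was 0.30, whereas that of all tested genes was 0.01, and 31 of the 35 were above 0. A called gene was at least 2-fold higher in only 2 cases, Rps4x and Rps23. By subunit, 10 of 17 small subunit genes, 6 of 14 large subunit genes and 1 of the 2 P stalk genes were called, and neither Rps19bp1 nor Rpl7l1 was.

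**Figure D2:**
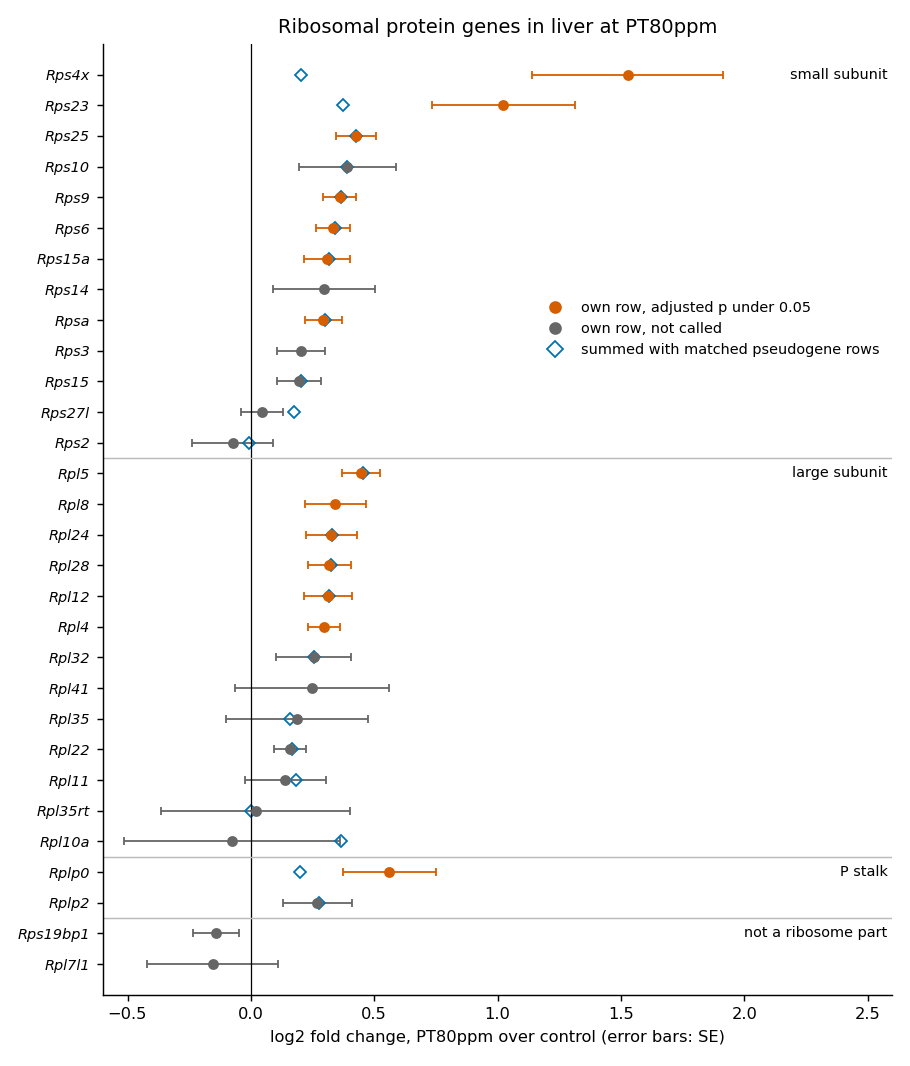
Log2 fold change of the genes reported by name in the PT80ppm group over control (x axis, with SE as error bars, 7 mice per group), sorted within the small subunit, the large subunit, the P stalk and the 2 genes that are not ribosome parts. Filled points are the gene's own row, orange where the adjusted p was under 0.05, and open diamonds are the gene summed with its matched pseudogene rows. Most called genes lie between 0.29 and 0.56, and Rps4x and Rps23 fall back towards the others when summed.

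Of the small subunit genes, Rps6 encodes the substrate of the S6 kinases that gave them their name. It rose from 272 to 419 CPM in control mice (median 361) to 354 to 666 CPM (median 465), by 0.33 ± 0.07 on the log2 scale (edgeR adjusted p = 0.000247), and the ranges overlapped. Rps25, needed by certain viral RNAs to recruit ribosomes, was at 23.4 to 41.99 CPM in control mice (median 30.04) and at 32.8 to 55.5 CPM in PT80ppm mice (median 44.98). Its log2 fold change was 0.43 ± 0.08 (edgeR adjusted p = 5.48e-05), with overlapping ranges. Rpsa, whose protein is also known as the laminin receptor, was at 387 to 558 CPM (median 521) and 478 to 802 CPM (median 646). It rose by 0.29 ± 0.07 on the log2 scale (edgeR adjusted p = 0.00263), the smallest change among the called genes of either subunit. Rps9, which joins the small subunit early in its assembly, was at 410 to 564 CPM in control mice (median 473) and at 447 to 881 CPM in PT80ppm mice (median 626), and it rose by 0.36 ± 0.07. Rps15a rose by 0.31 ± 0.09.

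Rps4x and Rps23 had the largest fold changes and the lowest counts among the called genes. Rps4x, an X-linked gene of the small subunit, was at 0.221 to 0.745 CPM in control mice (median 0.421), which is near the level of 3 counts, and at 0.863 to 1.964 CPM in PT80ppm mice (median 1.31). Every PT80ppm mouse was above every control mouse, and the log2 fold change was 1.53 ± 0.39 (edgeR adjusted p = 0.00272). Rps23, which sits at the decoding centre, was at 0.467 to 2.23 CPM in control mice (median 1.70) and at 0.245 to 5.89 CPM in PT80ppm mice (median 3.71). The lowest PT80ppm mouse was below all controls, and the log2 fold change was 1.02 ± 0.29 (edgeR adjusted p = 0.00803). Summed with their pseudogene rows, the same comparison gave 0.20 for Rps4x and 0.38 for Rps23, neither of which passed the test.

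Of the large subunit genes, Rpl5 (chr5:108048367-108058471, GRCm39) was highest among the called. Its protein binds the 5S ribosomal RNA and, together with Rpl11, the p53 ligase Mdm2. Control mice were at 238 to 307 CPM (median 263) and PT80ppm mice at 314 to 499 CPM (median 378), so the groups did not overlap, and the log2 fold change was 0.45 ± 0.08 (edgeR adjusted p = 1.51e-05). Rpl5 and Rps4x were the 2 of 35 genes without overlap, against 1.29% of all tested genes. Rpl4, which lines the exit tunnel of the new protein, rose by 0.30 ± 0.07 (edgeR adjusted p = 0.000655) from 573 to 764 CPM (median 666) to 674 to 1055 CPM (median 855). Its counts were whole in every mouse. Rpl8, Rpl24, Rpl28 and Rpl12 rose by 0.34 ± 0.12, 0.33 ± 0.11, 0.32 ± 0.09 and 0.31 ± 0.10. In the P stalk, which recruits the translation factors, Rplp0 rose by 0.56 ± 0.19 (edgeR adjusted p = 0.0274) from 11.04 to 31.97 CPM (median 20.1) to 19.5 to 42.1 CPM (median 25.4). Rplp2 had a value of 0.27 ± 0.14 and was not called, and Rplp1, analysed only as the sum of its matched pseudogene rows, was at 0.15 ± 0.14 (edgeR adjusted p = 0.522).

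At the other end, the 5 lowest values at PT80ppm were those of Rpl7l1 (log2 fold change -0.16 ± 0.27), Rps19bp1 (-0.14 ± 0.09), Rpl10a (-0.08 ± 0.44), Rps2 (-0.07 ± 0.16) and Rpl35rt (0.02 ± 0.38), none of which was called. The 2 lowest are the 2 genes that do not encode ribosome parts. Summed with its pseudogene rows, Rpl10a was at 0.36 and passed the test. Of the genes with a close paralogue, Rpl22 was at 0.16 ± 0.07 and Rps27l, a paralogue of Rps27 known as a p53 target, at 0.04 ± 0.08, both not called. The 6 genes with a pyrimidine run at the annotated start had log2 fold changes from 0.19 to 0.39 at PT80ppm, and 3 of them were called, Rpl28, Rps15a and Rps6.

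**Figure D3:**
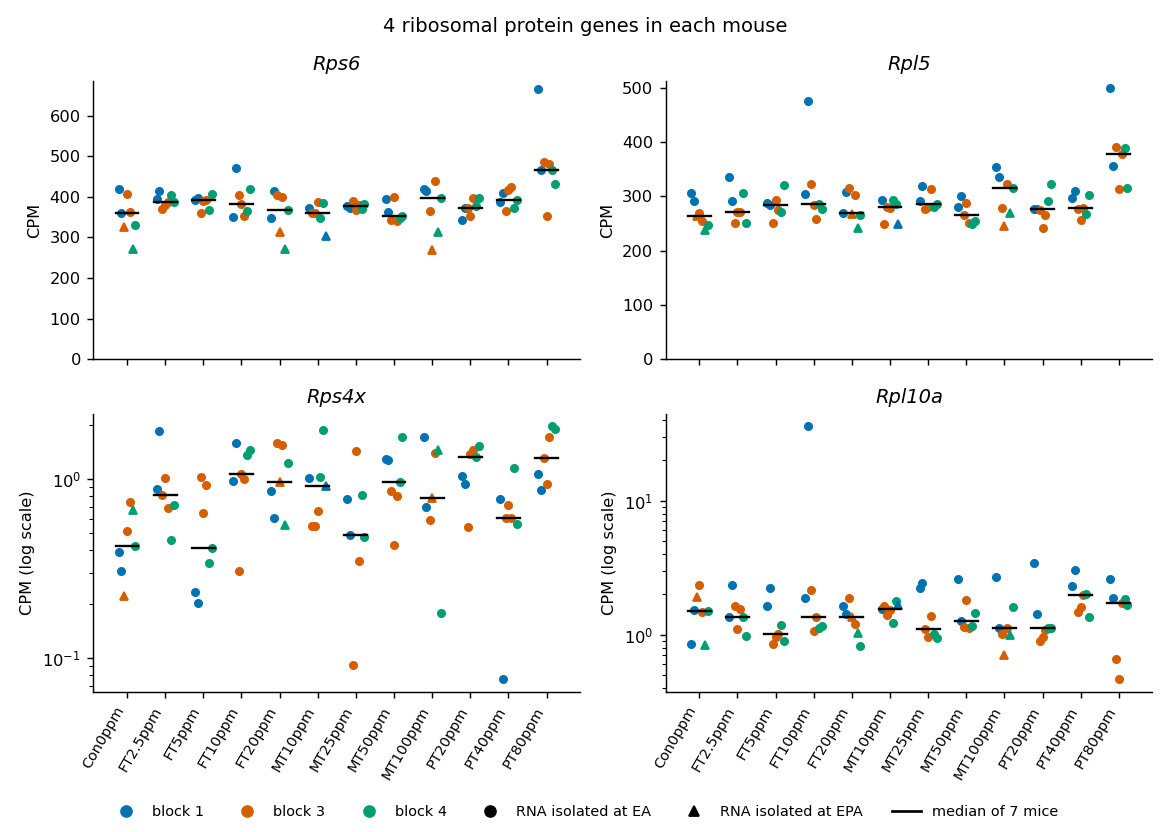
CPM of Rps6, Rpl5, Rps4x and Rpl10a in each of the 84 mice by group (y axis, log scale for Rps4x and Rpl10a). Colour marks the experimental block, triangles mark RNA isolated at EPA, and bars are medians of 7 mice. Rpl5 at PT80ppm does not overlap the control group, the control group is low for Rps4x, and 1 FT10ppm mouse is at 35.9 CPM for Rpl10a.

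Replicate 1 of PT80ppm, of block 1, weighed on these counts. It was the highest of the 7 PT80ppm mice for 26 of the 35 genes. Without it 12 of 35 genes were called, all of them among the 17, and the median log2 fold change was 0.20, against 12.3% of all genes called. The 5 calls lost were Rplp0, Rpl24, Rps15a, Rpl12 and Rpl8, whereas Rpl5 was at 0.39 ± 0.08 (edgeR adjusted p = 0.000189) and Rps25 at 0.40 ± 0.08 (edgeR adjusted p = 0.000309). In the same mouse the summed markers of leukocytes were at 18.2 CPM, those of Kupffer cells at 20.0 CPM, those of bile duct cells at 11.3 CPM and those of erythroid cells at 13.7 CPM, each the lowest of the 84 mice, and their part in the ribosomal protein values was not tested. Within blocks, the median difference of the 35 genes between PT80ppm and control mice was 0.49 in block 1 (33 of 35 above 0), 0.12 in block 3 (26 above 0) and 0.55 in block 4 (31 above 0). In block 3, replicate 4 was above the control mean for only 14 of the 35 genes. With EA mice alone the median was 0.10 in block 3 and 0.43 in block 4. In all 7 genes, among them Rpl4, Rpl5, Rps6, Rps9 and Rps25, were called under each alternative setting that was run and with each control or PT80ppm mouse left out. With control and parathion mice alone in the fit, 9 of 35 genes were called (9.57% of all genes), and in the values the authors had adjusted for block and isolator 27 were, 24 higher and 3 lower (49.4% of all genes).

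Markers of other liver cells moved in the same comparison. All 4 tested erythroid markers fell, by 1.17 (Hba-a1) to 1.53 (Hbb-bs) on the log2 scale, and their sum was 33.8 to 171 CPM in control mice and 13.7 to 51.9 CPM in PT80ppm mice. Of 5 tested Kupffer cell markers, Clec4f and Cd5l fell (log2 fold changes -0.80 and -0.87) and the other 3 were below 0 but not called; the sum was 76.96 to 162 CPM in control mice and 20.0 to 102 CPM in PT80ppm mice. Of 4 tested leukocyte markers only Ptprc passed the test, at -0.54, and the sums overlapped. Of the 8 hepatocyte markers, Cps1 and Hnf4a rose and Fgb fell, none of 6 endothelial markers was called, and of 5 stellate cell markers Dcn rose and Col3a1 fell. Spp1, the 1 tested marker of bile duct cells, fell by 1.11. The part of these differences in the ribosomal protein values was not tested, and in whole tissue fewer cells of a type and less RNA per cell cannot be told apart.

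At the lower parathion doses 0 of the 35 genes passed the test, by edgeR, DESeq2 or limma. At PT40ppm the median log2 fold change was 0.12, with 28 genes above 0 and 4 at an unadjusted p under 0.05 (8.51% of all genes were, and 0% were called). At PT20ppm the median was 0.06, with 24 above 0 and 4 at an unadjusted p under 0.05 (5.91% of all genes, with 0.0096% called). Rpl5 was at 256 to 309 CPM at PT40ppm (median 278), a range that overlapped the control mice, and its log2 fold change was 0.04 ± 0.08.

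The PT80ppm group was therefore also compared with the other parathion groups, a contrast that leaves out the control mice, although all 84 mice stay in the fit behind it. Against PT40ppm, 12 of 35 genes were called and all were higher (15.6% of all genes called, 8.23% higher), with a median of 0.26. The highest called were Rps4x (1.11 ± 0.35), Rpl35 (0.84 ± 0.29) and Rpl12 (0.47 ± 0.09), and the lowest called were Rps6, Rps25 and Rps9. Without PT80ppm replicate 1 the count was 11, with 7.96% of all genes called, and the median 0.07. Against PT20ppm, 14 of 35 were called and all were higher (21.9% of all genes called, 11.4% higher), with a median of 0.26, led by Rpl35 (0.96 ± 0.29) and Rps23 (0.89 ± 0.28), with Rps9 (0.29 ± 0.06) and Rpsa (0.26 ± 0.07) the lowest called. Without replicate 1 the count was 11, with 14.8% of all genes called, and the median 0.19. Rpl35, which lies at the tunnel exit, was at 0.19 ± 0.29 against control and not called. Summed with its pseudogene rows, Rpl35 was at -0.09 against PT40ppm, and it was not called in either comparison. Over the 3 parathion doses jointly, 15 of 35 genes passed the test, with 19.6% of all genes called.

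Methidathion gave no call among the 35 genes at any dose. The counts at an unadjusted p under 0.05 were 3 at MT10ppm, 2 at MT25ppm, 1 at MT50ppm and 7 at MT100ppm, where 9.97%, 5.79%, 3.99% and 13.7% of all genes were, and 0%, 0%, 0.0096% and 0.0768% of all genes were called. The medians were 0.03, 0.02, -0.06 and 0.11 in the order of the doses. At MT100ppm 29 genes were above 0, and of all genes 0.0672% were called higher and 0.048% were called at 2-fold or more. The 5 highest at MT100ppm were Rps4x (log2 fold change 1.09 ± 0.39, edgeR adjusted p = 0.188), Rps10 (0.54 ± 0.19), Rpl35rt (0.31 ± 0.36), Rpl28 (0.31 ± 0.09) and Rps25 (0.27 ± 0.08). The 5 lowest were Rpl7l1 (-0.53 ± 0.26), Rpl35 (-0.43 ± 0.29), Rps14 (-0.33 ± 0.21), Rpl10a (-0.26 ± 0.43) and Rps2 (-0.12 ± 0.16). DESeq2 called 1 gene of the 35 at MT100ppm (0.576% of all genes) and 0 at the other MT doses, and limma called 0 at each. Over the MT doses jointly 0 of 35 genes were called, with 4 at an unadjusted p under 0.05 and 0.0864% of all genes called.

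Fenthion gave 1 call. At FT10ppm, where 1.57% of all genes were called (0.835% higher and 0.739% lower), 6 of the 35 genes were at an unadjusted p under 0.05 (17.7% of all genes) and 1 was called. This was Rpl10a, with a log2 fold change of 1.63 ± 0.41 (edgeR adjusted p = 0.03). The call rested on 1 mouse: FT10ppm replicate 2 was at 35.9 CPM, or 409 counts, whereas the group median was 1.35 CPM and control mice were at 0.835 to 2.36 CPM (median 1.51). Without that mouse the log2 fold change was -0.04 ± 0.26 (edgeR adjusted p = 0.949). The row of Rpl10a-ps1, identical in coding sequence, held 4158 counts in that mouse, and Rpl10a summed with its pseudogene rows was at 0.17 ± 0.09 and not called. Rpl10a lost its call as well without FT10ppm replicate 4 and without control replicates 1, 2, 5 or 6.

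The other fenthion groups had 0 calls by edgeR, DESeq2 or limma. The counts at an unadjusted p under 0.05 were 4 at FT2.5ppm, 0 at FT5ppm and 1 at FT20ppm, where 10.7%, 7.59% and 3.98% of all genes were, and 0.0096%, 0% and 0% of all genes were called. The medians of the 35 genes ran from 0.02 to 0.06 over the 4 fenthion doses. At FT20ppm the 5 highest were Rps4x (1.16 ± 0.39, edgeR adjusted p = 0.999), Rps10 (0.24 ± 0.19), Rps15a (0.15 ± 0.09), Rps23 (0.13 ± 0.30) and Rpl11 (0.10 ± 0.16). The lowest were Rpl35 (-0.55 ± 0.29), Rpl7l1 (-0.33 ± 0.26) and Rpl10a (-0.23 ± 0.43). At FT10ppm DESeq2 called 2 of the 35 genes and limma 0, where 2.63% and 0.845% of all genes were called. Over the fenthion doses jointly Rpl10a was the 1 gene called, and 0.0768% of all genes were. Without FT10ppm replicate 2 it was not called there either.

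Across the 11 comparisons with the same 7 control mice, Rps4x was above 0 in all 11 (log2 fold changes 0.22 to 1.53) and at an unadjusted p under 0.05 in 8, and it was called only at PT80ppm. The control mice held 3.18 to 7.64 counts of Rps4x each, and all 11 values share them. Rpl35 was below 0 in the 10 other dosed groups and above 0 at PT80ppm, and its values share the same control mice. Summed with its pseudogene rows, Rpl35 was at 0.03 ± 0.17 at FT10ppm and 0.16 ± 0.17 at PT80ppm, both not called.

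**Figure D4:**
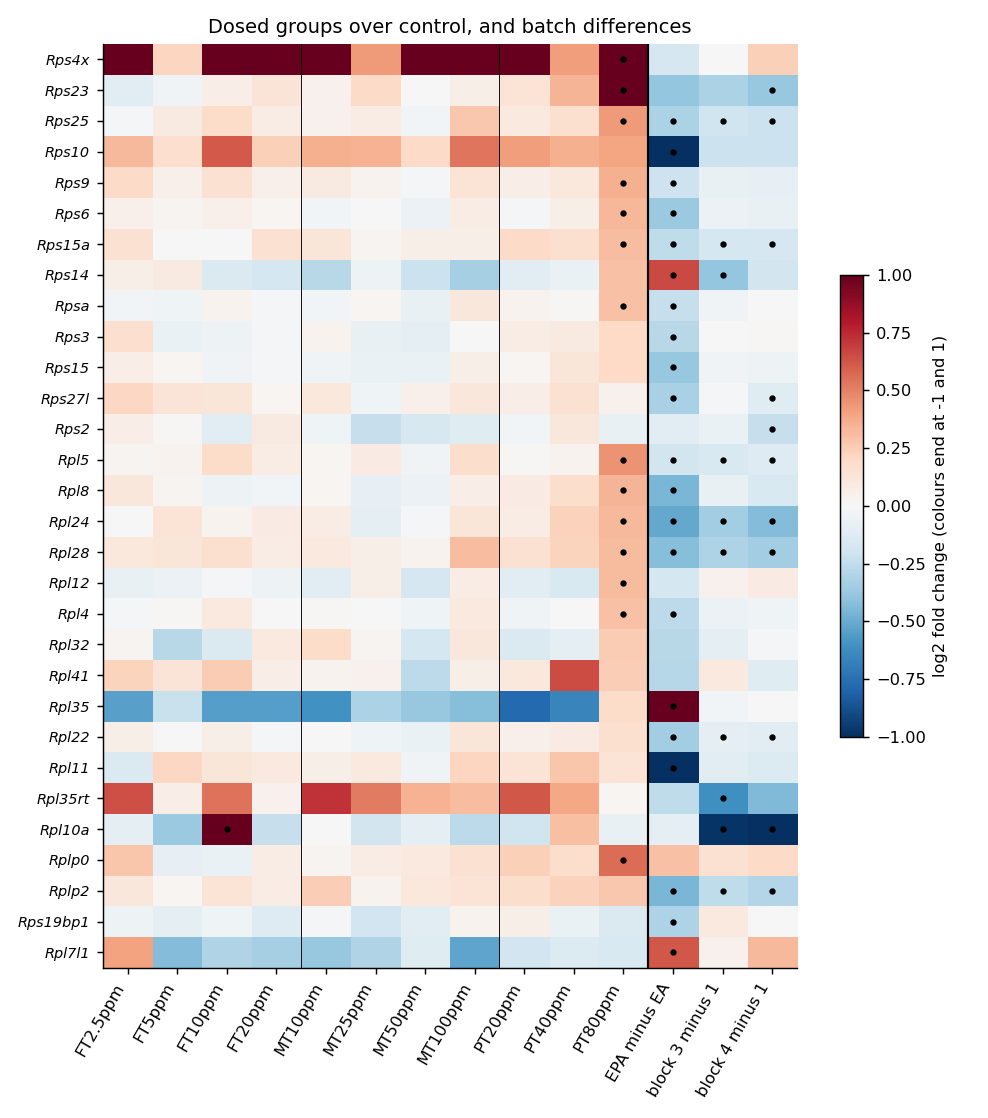
Log2 fold change of the genes reported by name (rows, ordered as in the plot of PT80ppm values) in the 11 dosed groups over control and for the differences between RNA isolators and between blocks (columns). Colours end at -1 and 1, and dots mark an adjusted p under 0.05. The PT80ppm column is red for all these genes but Rps2, Rpl10a, Rps19bp1 and Rpl7l1, the other dosed columns hold 1 dot between them (Rpl10a at FT10ppm), and the isolator column is mostly blue with Rpl35, Rps14, Rpl7l1 and, with no dot, Rplp0 in red.

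Diet levels were shared by 2 pairs of OPPs, 10 ppm for FT and MT and 20 ppm for FT and PT. Neither pair gave a call among the 35 genes, and 0% of all genes were called in either. At an unadjusted p under 0.05 there were 3 genes in FT10ppm against MT10ppm and 0 in FT20ppm against PT20ppm, where 7.65% and 3.4% of all genes were. Rps6 differed by 0.08 ± 0.07 (SE) on the log2 scale in the first pair and by 0.04 ± 0.07 in the second. The 95% interval of the difference lay within 0.5 on the log2 scale on either side of 0 for 24 of 35 genes in each pair, so smaller differences were not excluded, nor were larger ones for the other 11. The largest values were Rpl10a at 1.63 ± 0.39 in the first pair, with the mouse described above, and Rpl35rt at -0.58 ± 0.36 in the second. Without that mouse Rpl10a was at -0.04 ± 0.25 in the first pair.

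Many of these genes differed between the laboratories that isolated the RNA. In the same model, 24 of 35 genes differed between EPA and EA mice, 3 higher and 21 lower in EPA, against 38.7% of all genes called, 19.6% higher and 19% lower. The median was -0.27, and 30 genes were below 0. Rps10 was lowest: EPA mice were at 23.4 to 33.6 CPM (median 28.2) and EA mice at 18.6 to 150 CPM (median 74.7), a log2 difference of -1.32 ± 0.17 (edgeR adjusted p = 4.51e-09). Rpl11 followed, at 8.28 to 15.2 CPM in EPA mice (median 14.1) and 3.76 to 34.7 CPM in EA mice (median 28.6), with a difference of -1.03 ± 0.14, and Rpl24 came next at -0.51 ± 0.09. Rpl35 went the other way, from 5.75 to 44.3 CPM (median 12.7) in EA mice to 21.2 to 96.8 CPM (median 50.4) in EPA mice, a difference of 1.80 ± 0.22 (edgeR adjusted p = 4.54e-10). Rps14 (0.66 ± 0.16) and Rpl7l1 (0.62 ± 0.21) were the other 2 that were higher. Rpl35 summed with its pseudogene rows differed by -0.01. Within the groups that held EPA mice the median difference was -0.20 in control, -0.29 in FT20ppm, -0.30 in MT100ppm and -0.25 in MT10ppm, the last with 1 EPA mouse. Scaled to total counts, where the median of all genes shifted to 0.15, 15 genes were called, 4 higher and 11 lower, where 40.6% of all genes were called, 32.1% higher and 8.55% lower. At PT80ppm the same scaling gave 23 calls, so the order of the isolator and PT80ppm counts (24 and 17 with TMM scaling) turned.

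Between blocks the differences were smaller. Against block 1, 13 of 35 genes (37.1%) differed in block 3, with 1 higher and 12 lower. Of all genes 40% were called there, 18.8% higher and 21.2% lower. In block 4, 12 genes (34.3%) differed, all lower. Of all genes 38.1% were called there, 18.2% higher and 19.9% lower. The counts were thus near the share of all genes, whereas the directions were not. The medians of the 35 genes were -0.08 and -0.12. Rpl10a was lowest in both, at -0.98 ± 0.20 and -1.04 ± 0.23, which includes the FT10ppm mouse of block 1. In block 3 it was followed by Rpl35rt (-0.62 ± 0.17) and Rps14 (-0.38 ± 0.10), and in block 4 by Rpl24 (-0.43 ± 0.06) and Rps23 (-0.38 ± 0.16). Among the highest values in block 3 were those of Rplp0 (0.15 ± 0.09) and Rpl41 (0.10 ± 0.15), and in block 4 Rpl7l1 (0.33 ± 0.14), Rps4x (0.24 ± 0.19) and Rplp0 (0.19 ± 0.10) were highest, and none of these was called. Summed with its pseudogene rows, Rplp0 was at -0.24 in block 3 and -0.23 in block 4. The median of the 35 genes was below 0 within 9 of 12 groups for block 3 and within 11 of 12 for block 4.

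Because reads were divided between genes and pseudogenes, each ribosomal protein gene was also summed with its matched pseudogene rows, and the model was fitted again. This gave 81 genes above the count minimum, of which 46 had no tested row of their own, and for 35 of these 46 the sum held pseudogene rows alone. At PT80ppm 44 of the 81 were higher and 0 lower (18.2% of all genes called in that fit, 9.56% higher), the median log2 fold change was 0.31, and 75 of 81 were above 0. Of the 46 genes outside the 35, 29 were higher, and 19 of these 29 were sums of pseudogene rows alone. Rps28 (0.54 ± 0.12), Rps18 (0.49 ± 0.14) and Rpl21 (0.48 ± 0.12) were highest among these, each a sum of pseudogene rows alone, and Rpl22l1, the paralogue of Rpl22, was lowest (-0.18 ± 0.14, not called).

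For the 35 genes the sum narrowed the range, mainly through Rps4x and Rps23. The SD of their log2 fold changes at PT80ppm was 0.31 for the single rows and 0.16 for the sums, whereas the interquartile range was 0.19 and 0.17 and the medians were both 0.30. Only 2 genes moved by more than 1.5-fold. Rps4x, Rps23 and Rplp0 lost their calls, Rpl10a gained one, and 14 genes were called both ways. Split by sequence, 3 of 8 genes without a stretch of 50 bases shared with another row were called at PT80ppm, and 14 of 27 with such a stretch, with medians of 0.27 and 0.31. For the isolator, 59 of the 81 sums differed (4 higher and 55 lower in EPA). Of all genes in that fit 38.2% were called, 19.9% higher and 18.2% lower. For block 3 and block 4 against block 1, 47 (45 lower) and 42 (41 lower) of the sums differed. Of all genes 39.9% and 38.2% were called, 20.4% and 19.2% as lower.

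The 35 rows together held a small share of the reads. In control mice the share of all counts was 0.442% to 0.612% (median 0.488%), and in PT80ppm mice it was 0.529% to 0.991% (median 0.678%). Of the 7 PT80ppm mice, 6 were above the highest control mouse, and all 7 were above the control median. Without PT80ppm replicate 1, the mouse at 0.991%, the median was 0.671%. In the other 10 dosed groups the medians ran from 0.521% at MT25ppm to 0.58% at PT40ppm. Only FT2.5ppm (2 mice), MT100ppm (1) and PT40ppm (1) held mice above the highest control. By batch, the median was 0.485% in EPA mice and 0.546% in EA mice, and it was 0.5849% in block 1, 0.527% in block 3 and 0.534% in block 4. The control group includes 2 EPA mice and PT80ppm none; with EA controls alone the control median was 0.516%. The 10 most abundant genes took 16.1% to 22.4% of counts in control mice and 15.1% to 19.3% in PT80ppm mice, and the part of this in the share was not tested.

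**Figure D5:**
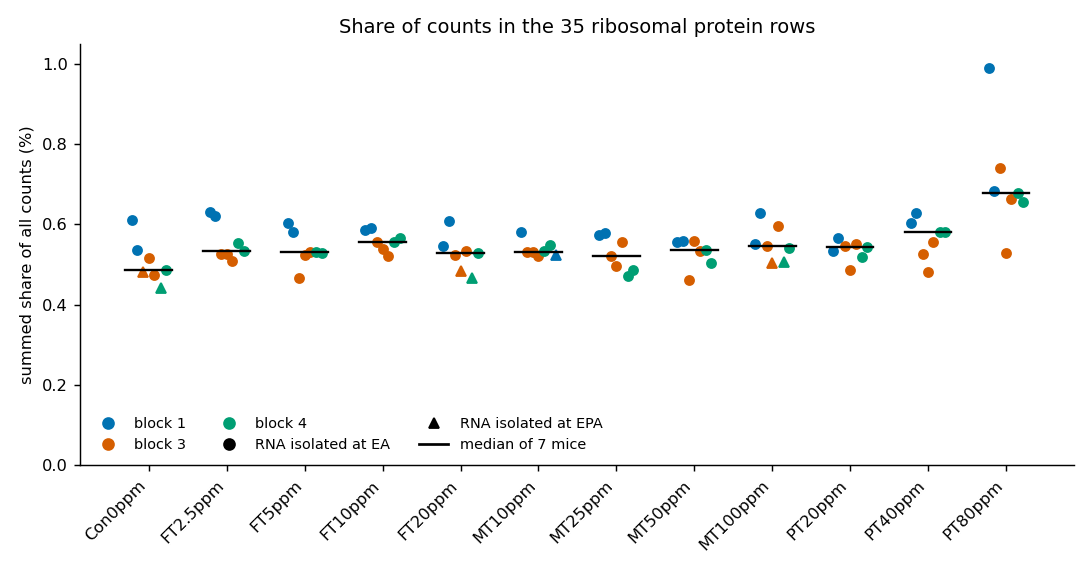
Summed share of all counts in the 35 rows (y axis, percent) for each of the 84 mice by group. Colour marks the block, triangles mark RNA isolated at EPA, and bars are medians of 7 mice. PT80ppm has the highest median (0.678%), with 1 mouse at 0.991% and 1 at 0.529%, the latter within the control range.

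The genes also varied together between mice of the same group. After group, block and isolator were removed, the median correlation between 2 of the 35 genes was 0.12 over 84 mice (595 pairs), and over all pairs of tested genes it was -0.00132. For genes with a median count of at least 100 the values were 0.20 and 0.00146. Both genes of a pair are read from the same library in each mouse, and the low counts of some rows limit any correlation, so the values are given as a description. Rpl22 had the highest median correlation with the others (0.38), then Rps9 (0.37), Rps6 (0.34) and Rpl28 (0.33), and Rpl7l1 (-0.10) and Rpl35 (-0.09) had the lowest. Outside the 35, the 10 rows most correlated with the mean of the 35 were all pseudogene rows. Gm6278, at a correlation of 0.77, matches Rplp0, Gm4332, at 0.67, matches Rps20, and the other 8, at 0.66 to 0.67, match Rpl30. Of the 100 most correlated rows, 47 were matched pseudogene rows, of 176 among the 10380 tested rows outside the 35. Rows among which reads were split evenly repeat each other: the 8 rows of Rpl30 held 5 distinct sets of counts, the 47 rows 36 and the 176 rows 153 (equal to 3 decimals in every mouse).

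Other parts of the translation machinery were read from lists, all at the same background of calls as above. Rack1, a ribosome part outside the rule, was at 0.05 ± 0.14 at PT80ppm and not called, and Fau was not analysed here. Of 11 tested genes for other TOP mRNAs of translation, 6 were called at PT80ppm, all higher: the initiation factor subunits Eif3h (0.42 ± 0.05), Eif4b (0.40 ± 0.14) and Eif3f (0.36 ± 0.08), and the elongation factors Eef2 (0.35 ± 0.06), Eef1a1 (0.34 ± 0.07) and Eef1d (0.30 ± 0.11). The list's median was 0.34 and all 11 were above 0. Of 26 initiation factors whose mRNAs are not classed as TOP, 1 was called, Eif4g3 (-0.28 ± 0.07), and the median was 0.06. Of 40 ribosome biogenesis genes 5 were called, all higher: Nop56 (1.01 ± 0.25) and Gar1 (0.49 ± 0.14) of the snoRNA particles that modify ribosomal RNA, and Ddx21 (0.46 ± 0.16), Ncl (0.34 ± 0.09) and Mybbp1a (0.32 ± 0.10) of the nucleolus. The median of that list was 0.21 and 36 of 40 were above 0.

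The mitochondrial ribosome, a separate machine that translates the few mRNAs of mitochondrial DNA, had a median below 0. Of its 64 tested genes, 4 pseudogene rows left out, 2 were higher at PT80ppm, Mrps9 (0.28 ± 0.09) and Mrps34 (0.16 ± 0.05), and 4 were lower, Mrps25 (-0.46 ± 0.16), Mrpl38 (-0.40 ± 0.14), Mrpl4 (-0.25 ± 0.08) and Mrps22 (-0.25 ± 0.09). The median was -0.06, and 41 of 64 were below 0. Of 17 growth regulators, Ddit4, an inhibitor of mTOR, rose by 2.69 ± 0.60 (edgeR adjusted p = 0.000705) and Sesn3, another, fell by 0.57 ± 0.15 (edgeR adjusted p = 0.0037). In the other dosed groups 1 gene of these lists was called, Mrpl13 at FT10ppm (0.44 ± 0.12). Between EPA and EA mice 40 of the 64 mitochondrial ribosomal genes differed, 36 of them lower in EPA, with a median of -0.25, beside -0.27 for the cytosolic genes.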

How the data were processed

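Livers of 84 mice in 12 groups of 7 were read by TempO-Seq. Per the labels, samples fell into groups by pesticide and diet level, 3 blocks and 2 RNA isolators. The authors trimmed and aligned reads in Partek (build mm39 per the submitters' processing notes) and deposited estimated counts per gene from an expectation-maximization step, in which 18.7% of values were not whole. They also deposited values that serve here as a score: log2(CPM + 1) adjusted by the authors for block and isolator. There, 11 mice, 3 of them controls, hold the values of another mouse to 3 decimals, so it was used as an alternative only.

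Counts were rounded and genes with a median count above 8 were kept (10415 of 17695 rows). The main test was edgeR 4.0.16 (R 4.3.3), a quasi-likelihood fit of all 84 mice with group, block and isolator as terms, TMM scaling and Benjamini-Hochberg adjustment over all tested genes, with calls at an adjusted p under 0.05. CPM are on TMM-scaled totals. Symbols came from GENCODE M39 (17660 of 17695 identifiers matched, 35 did not), and pseudogenes were matched to transcripts with BLAST 2.17.0. No column of per-sample values was left out. On simulated counts for PT80ppm against control over 10415 genes, the test recovered 44 of 100 genes changed by 0.5 on the log2 scale and 89 of 100 changed by 1, with 2 false calls. The simulated counts held no block or isolator effect, and only these genes were changed. The real data have both effects and many more called genes, so recovery and false calls there may differ.

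Depth was 6950380 to 15300600 counts per mouse. Counts of 3 were taken as the floor, which covers counting error only. Alternatives were DESeq2 1.42.0, limma 3.58.1 on log2(CPM + 1), total-count scaling, no filter, no covariates, EA mice alone, control with a single OPP, the adjusted values, summed pseudogene rows, and each mouse left out in turn.

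The members and gene lists were chosen with earlier results of these data known. Genes named with values were the 3 highest and 3 lowest called in a comparison, the 5 highest and 5 lowest of the 35 at PT80ppm, MT100ppm and FT20ppm, the 3 highest and lowest of the batch comparisons, Rpsa and the P stalk genes, paralogues, genes beside the count minimum, called genes of the related lists (3 per direction) and the 10 rows most correlated with the members. The other called genes, Rpl5 and Rps6 at other doses and Rps28, Rps18 and Rpl21 were named after their values were seen. Some genes are not reported here by name and are left out of the plots by gene, and they remain in the counts, medians and shares.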

Additional observations from a re-analysis of the deposited data

Results flagged for a closer look

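Among 93 groups of 7 values that were tested for a mouse far from the others, 6 held one, and chance gives about 1 in 20 groups. Of these, 2 were in PT80ppm, where 1 mouse was at 666 CPM for Rps6 and the highest summed share with matched pseudogene rows was 3.35% of counts. The highest summed share in MT10ppm, 2.06%, was likewise far from the rest of its group. Rpl10a at 35.9 CPM in FT10ppm was the mouse on which the 1 fenthion call rested. Rpl35 at 52.7 CPM in FT20ppm and at 96.8 CPM in MT100ppm also lay far from the other mice, and each of these groups held 2 EPA mice. Both values were above the highest EA mouse for Rpl35, so both belonged to EPA mice.

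Between parathion doses, by a test of the difference itself, 12 of the 35 genes were called in PT80ppm against PT40ppm (15.6% of all genes). In PT80ppm against PT20ppm 14 were called (21.9% of all genes). Without PT80ppm replicate 1 each count was 11 (7.96% and 14.8% of all genes), with medians of 0.07 and 0.19. Outside the 35 tested rows, 29 of 46 summed ribosomal protein genes were higher at PT80ppm than in control mice. Of all genes in that fit, 9.56% were called higher. Of the 29, 10 were genes summed with matched pseudogene rows and 19 were sums of such rows alone.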

How the results depend on the processing

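With control and a single OPP in the fit, 9 of the 35 genes were called at PT80ppm (9.57% of all genes). That fit gave 1 at MT100ppm and 0 at FT10ppm and over the fenthion doses. At FT10ppm DESeq2 called 2 genes (2.63% of all genes), a fit without covariates 3, EA mice alone 0 and limma 0 (0.845%). DESeq2 called 1 at MT100ppm (0.576%). No share of all genes is given for the other counts here, so they are not read further. Over the fenthion doses limma and the summed rows gave 0. The authors' adjusted values gave 15 calls at FT2.5ppm (34.3% of all genes), 15 at FT5ppm (39.5%), 21 at FT10ppm (55.2%) and 18 at FT20ppm (31.1%). For methidathion there were 16 at MT10ppm (31.6%), 12 at MT25ppm (42.1%), 14 at MT50ppm (39.3%) and 23 at MT100ppm (41.2%). For parathion there were 15 at PT20ppm (43.2%), 21 at PT40ppm (46.4%) and 27 at PT80ppm (49.4%). At FT5ppm, MT25ppm, MT50ppm and PT20ppm the counts, out of 35, were near or below the share of all genes. Jointly, these values gave 28, 29 and 32 over the doses of FT, MT and PT. They gave 22 for FT10ppm against MT10ppm, 6 for FT20ppm against PT20ppm, and 20 and 24 for PT80ppm against PT40ppm and PT20ppm. No share of all genes is given for these joint and between-group counts, so they are not read further. Between isolators, total-count scaling gave 15 calls and limma 14 (40.6% and 40.2% of all genes), whereas at PT80ppm they gave 23 and 21 (23.4% and 22.4%), and between blocks total-count scaling gave 22 in block 3 and 19 in block 4 (42.6% and 38.1%). The cause was not tested.

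With 1 mouse left out, calls ranged from 12 to 21 at PT80ppm, 11 to 22 over the PT doses, 11 to 12 and 11 to 19 for PT80ppm against PT40ppm and PT20ppm, 0 to 2 at FT10ppm, 0 to 1 over the FT doses and 0 to 1 for FT10ppm against MT10ppm, and were 0 in the other dosed groups. Of all genes, 12.3% to 20.7% were called at PT80ppm, 7.96% to 18.9% against PT40ppm and 14.8% to 24.9% against PT20ppm. Without FT10ppm replicate 6, 2 genes were called at FT10ppm, and without replicate 7, 1 against MT10ppm.

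The sign of 7 named values turned with a call before or after: Rpl10a at FT10ppm without replicate 2 (-0.044, and up to 1.85 with another mouse left out), Rps19bp1 at PT80ppm in the adjusted values (0.22), and, with pseudogene rows summed, Rpl10a at PT80ppm (0.36), Rpl35 for PT80ppm against PT40ppm (-0.092) and between isolators (-0.0095), and Rplp0 in block 3 (-0.24) and block 4 (-0.23). In a further 31 of 941 cases, each a named value under an alternative, an uncalled value changed sign and stayed uncalled. Counted in the same way over 67 named values, called values kept direction and call in 369 cases, lost the call in 45 and reversed in 3. Leaving out FT10ppm mice, comparing parathion doses, summing genes outside the 35 and the splits by sequence and count were chosen after seeing the data. No paired analysis was possible because the labels give no replicate numbers that groups share. Low counts limit the rows near the count minimum, such as Rps4x, Rps23 and Rpl10a. Summed with their pseudogene rows, these 3 had median counts of 63.1, 2885 and 2790.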
